A study of Mus musculus with 9 samples.

Results

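The comparison described here sets mouse embryonic stem (ES) cells that carry EWS-OCT4 against J1, a widely used unmodified ES cell line. It takes 6 of the 9 RNA-seq libraries of the series, 3 of the EWS-OCT4 line and 3 of J1, chosen by their labels alone. The remaining 3 libraries are of a stable line with unfused OCT4, used here only beside genes and regions of the main comparison. The labels call both modified lines Niwa stable cell lines, give each 1 name, and leave unsaid if numbered libraries come from separate clones or cultures. All lines were grown in ES cell medium with LIF, a cytokine that sustains self-renewal. The stable lines also received doxycycline at 1 µg/ml, given to lower endogenous OCT4. Whether J1 received it, which promoter drives the introduced sequences, and which parent line they were put into are not stated in the labels. Introduced gene, doxycycline, parent line and clone therefore cannot be told apart in any difference from J1, and the p-values reflect library-to-library spread alone, which may be technical.

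OCT4, the product of Pou5f1, is a POU-domain transcription factor that ES cells need to stay pluripotent, and it binds DNA alone at the octamer sequence or beside SOX2 at a composite site. EWS, the product of Ewsr1, is an RNA-binding protein whose fusions to transcription factors occur in human tumours, one with OCT4 among them. Mouse ES cells in LIF sit mainly in a naive state, from which they pass through formative and primed states towards germ layers, and rare cells in such cultures express genes of the two-cell embryo.

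Counts under Pou5f1 checked the labels. J1 had 522, 639 and 545 CPM (counts scaled to a common library size) in its 3 libraries, and the EWS-OCT4 line had 25.6, 29.3 and 25.6. The groups were far apart, and the line kept 4.72% of the J1 mean. The log2 fold change was -4.41 (SE 0.0925, adjusted p = 3.3e-16, quasi-likelihood test of edgeR, Benjamini-Hochberg adjustment), lower in 3 of 3 libraries. Ewsr1 had 478, 621 and 582 CPM in J1 and 495, 549 and 551 in the EWS-OCT4 line, with overlapping groups, and its log2 fold change was -0.08 (adjusted p = 0.495 by the same test). Without the first J1 library it was -0.18 (adjusted p = 0.0407). Whether reads of the introduced sequences fall under these symbols is unknown, so neither value measures the fusion. Library totals lay between 21149358 and 24786305 counts, and 16562 of the 40213 listed symbols had enough counts to be tested. Replicate libraries were not copies of one another: chi-square divided by its degrees of freedom was 3.21 to 5.09 between EWS-OCT4 libraries and 11.4 to 29.2 between J1 libraries. All 8 of 8 ES cell markers on a short marker list were detected, with a summed level of 3100 to 3150 CPM in the EWS-OCT4 line and 4590 to 5010 in J1. Pou5f1 and Zfp42 had the largest falls within that sum, while Nanog rose. The 9 feeder cell markers summed to 22.3 to 25.5 CPM and 70.0 to 90.4 CPM, the lower range again in the EWS-OCT4 line. Col1a1 and Thy1 made up most of the sum in each group, and Dcn was at 0 in both. In bulk RNA, fewer cells of a type and less RNA per cell cannot be told apart.

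Most of the highly expressed transcriptome of J1 was kept. A gene counts as kept here when the 95% interval of its log2 fold change lies within 1.5-fold in either direction, and as higher or lower when its adjusted p in the quasi-likelihood test of edgeR is under 0.05 after Benjamini-Hochberg adjustment, and both are calls against J1. Of the 16562 genes tested, 5989 were kept (36.2%), 10249 were called (61.9%), 5016 as higher (30.3%) and 5233 as lower (31.6%), and 2293 genes (13.8%) were both kept and called, with changes too small to leave the band. Counts of kept genes below therefore overlap with counts of higher or lower ones. The 3 against 3 CPM values did not overlap for 65.7% of the genes. At least 2-fold changes numbered 1341 higher (8.1%) and 2062 lower (12.5%). The share kept rose with the level. No gene with a mean under 1 CPM could be placed inside the band, against 15.9% at 1 to 10 CPM, 54.7% at 10 to 100 CPM and 68.2% of the 1931 genes at 100 CPM or more. In that highest class only 45 genes were at least 2-fold higher and 29 at least 2-fold lower. Among the 2522 genes under 1 CPM, 41.5% changed at least 2-fold, 372 upwards and 675 downwards. Precision moved with the level too, since the median SE of the log2 fold change was 0.454 under 1 CPM and 0.0728 at 100 CPM or more.

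**Figure D1:**
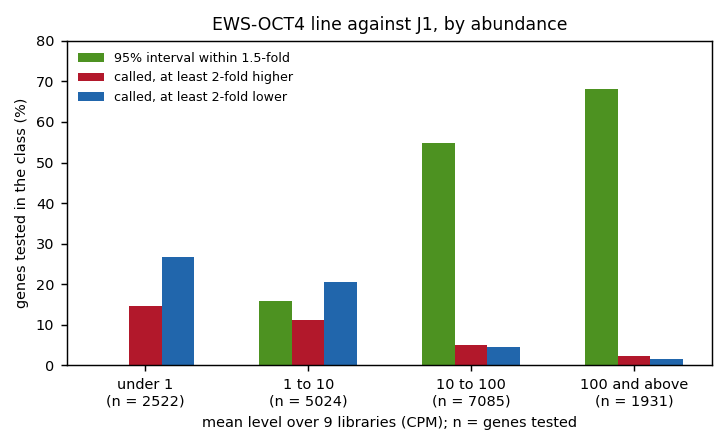
Share of tested genes (%) kept within 1.5-fold, at least 2-fold higher and at least 2-fold lower in the EWS-OCT4 line against J1, by mean level over 9 libraries in CPM. The kept share climbs from 0% under 1 CPM to 68.2% at 100 CPM or more, while the share changed at least 2-fold falls from 41.5% to 3.83%.

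Expression also differed by chromosome, which bears on every gene list below. Genes averaging 5 CPM or more were put in the gene order of the RefSeq annotation, and each chromosome was divided into 10 parts with equal numbers of genes. The median log2 fold change was -0.41 over chromosome 8, where 420 of 585 genes were lower and 46 higher, and -0.46 over chromosome 11, where 631 of 873 were lower and 60 higher. On chromosome 12 parts 1 to 7 had medians from -0.553 to -0.344. Its parts 9 and 10, from Ndufb1 to Sp4, had medians of 1.05 and 1.01, with 35 of 39 and 38 of 40 genes higher and 0 lower. Chromosome 14 stood at -0.883, -0.905 and -0.731 in its parts 7 to 9 (Cryl1 to Klf12) and at 0.58 in part 10. Part 10 of chromosome 17 was at -0.688 and part 9 of chromosome 5 at 0.618. The median over the 10167 autosomal genes was 0.04. The unfused OCT4 line differed from the same J1 libraries in the same places, with 0.997 and 1.03 at the end of chromosome 12, and EWS-OCT4 minus OCT4 was 0.063 and -0.062 there. The X chromosome was not alike in the stable lines, at 0.17 for EWS-OCT4 and 0.63 for OCT4 against J1. Gene dosage was not measured, and its part in these shifts was not tested.

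These 6 chromosomes (5, 8, 11, 12, 14 and 17, chosen after their values were seen) are called the shifted chromosomes below. Of their 5164 tested genes, 22.3% were higher, 46.5% lower and 30.8% kept. Of the 10938 tested genes on the other chromosomes, 34.1% were higher, 25.1% lower and 39.6% kept. Several lists below have many members on the shifted chromosomes, and counts on the other chromosomes are given beside some of these. Parts 7 to 10 of chromosome 6, counted among the other chromosomes, had medians of 0.383, 0.305, 0.262 and 0.488. EWS-OCT4 minus OCT4 was also raised there, at 0.306, 0.513, 0.219 and 0.517. It was raised in part 9 of chromosome 5 too, at 0.252, unlike at the end of chromosome 12. Part 9 of chromosome 6 ends at Cdkn1b, and Nanog lies on chromosome 6 too.

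**Figure D2:**
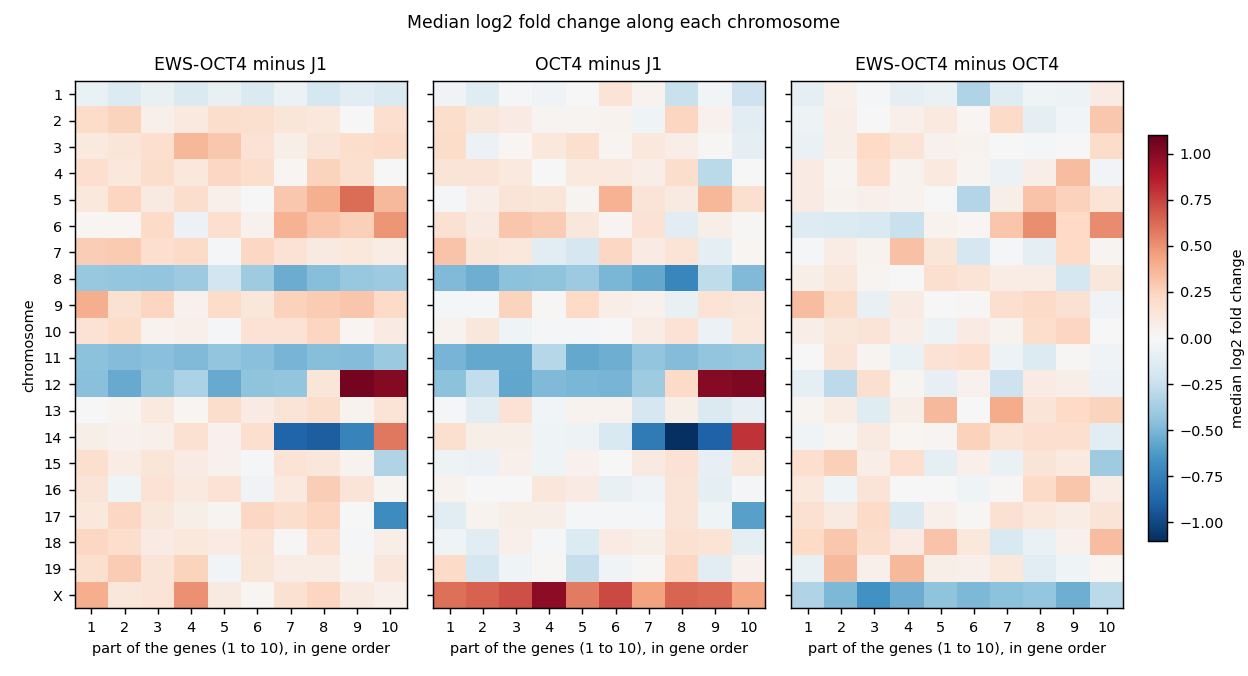
Median log2 fold change over 10 parts of each chromosome's genes in gene order (colour), for EWS-OCT4 minus J1, OCT4 minus J1 and EWS-OCT4 minus OCT4. Chromosomes 8, 11, most of 12 and part of 14 are low and the end of 12 is high in both stable lines against the shared J1 libraries, and these bands are mostly near 0 between the stable lines.

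The core factors of the pluripotency network other than Pou5f1 moved both ways. Of 14 transcription factors listed for it, 8 were kept (57.1%, where all genes of 10 CPM or more had 54.7% to 68.2%). Of the same list, 7 were higher and 3 lower (71.4% called, against 61.9% of all genes), with a median log2 fold change of 0.20 against 0.00 over all genes tested. Sox2, the DNA-binding partner of OCT4, had 629, 808 and 712 CPM in J1 and 542, 612 and 587 in the EWS-OCT4 line. The groups did not overlap, and the fold change of -0.30 (95% interval -0.48 to -0.12) was called lower and yet stayed inside the 1.5-fold band. Esrrb, an orphan nuclear receptor of the same network, was kept at -0.14. Zfp281 and Mybl2, other regulators of ES cells, were kept at -0.03 and 0.32. Nanog rose from 277, 249.8 and 258 CPM in J1 to 487, 478 and 478, a 1.84-fold difference with no overlap (adjusted p = 4.25e-09, edgeR). In the OCT4 line Nanog was also above J1, at 516, 537 and 496 CPM of total counts. Foxd3, a forkhead repressor needed by ES cells, rose 2.5-fold, and EWS-OCT4 minus OCT4 was 2.08 (adjusted p = 5.88e-11 by the same test), a contrast that called 66.5% of all genes.

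The promoters of 3 called genes are printed because they hold matches to the sequences that OCT4 is known to bind, and they were chosen after those matches and their values were seen. Windows of 250 bases before to 50 after the start came from RefSeq (GRCm38.p6, of the build GRCm38), which had one for 12526 of the 16562 tested genes. Of the windows printed, the 250 bases before the start are shown. Both strands were searched for the octamer ATGCAAAT and for a composite made of TTGT, any 1 base and ATGCAAA, which is the octamer without its last letter. Capitals mark the matches, and each sequence is read 5′ to 3′ on the gene's strand.
Nanog, chr6:122707239-122707488, plus strand: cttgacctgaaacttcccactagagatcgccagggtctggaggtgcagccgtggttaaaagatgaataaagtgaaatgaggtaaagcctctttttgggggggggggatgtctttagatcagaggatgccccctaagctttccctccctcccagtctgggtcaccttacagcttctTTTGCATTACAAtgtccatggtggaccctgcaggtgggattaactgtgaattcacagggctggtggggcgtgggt
Pim2, chrX:7878056-7878305, plus strand: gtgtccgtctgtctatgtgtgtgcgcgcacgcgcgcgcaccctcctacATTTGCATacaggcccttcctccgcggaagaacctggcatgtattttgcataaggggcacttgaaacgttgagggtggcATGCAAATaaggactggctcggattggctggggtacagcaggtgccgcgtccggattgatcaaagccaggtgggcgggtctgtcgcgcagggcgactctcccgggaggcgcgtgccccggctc
Egln3, chr12:54203875-54204124, minus strand: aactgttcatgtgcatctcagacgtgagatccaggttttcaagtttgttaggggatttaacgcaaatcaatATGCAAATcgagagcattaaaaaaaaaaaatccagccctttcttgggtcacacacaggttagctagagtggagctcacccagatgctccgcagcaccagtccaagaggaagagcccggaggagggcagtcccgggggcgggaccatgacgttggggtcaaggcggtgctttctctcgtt
The Nanog window held the composite on the opposite strand, ending 64 bases before the start. Pim2, a serine/threonine kinase gene that rose 2-fold, held 2 octamers, and Egln3, an oxygen-sensing hydroxylase gene that fell, held 1. The composite was in 6 of the 12526 tested promoters (0.0479%), and the other 5 were those of Astn1, Exoc1, Idua, Nrarp and Pipox, named for that match. Octamers were in 1.64% of the promoters of genes at least 2-fold higher (16 of 974), 1.74% of those at least 2-fold lower (26 of 1495), 1.21% of those kept (58 of 4776), 1.48% of all tested promoters (185 of 12526) and 1.75% of all 27025 promoters. These matches describe the windows and say nothing of binding.

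Surface and metabolic markers of ES cells also moved both ways, with 7 of 13 higher, 5 lower and 4 kept. Cdh1, which encodes E-cadherin, fell from 794, 852 and 829.5 CPM to 339, 362 and 345, 2.37-fold lower with no overlap, in a stretch of chromosome 8 whose median was -0.469. Epcam, an epithelial adhesion gene, fell by 0.60 on the log2 scale, in the end of chromosome 17 whose median was -0.688, and Tdgf1, a Nodal co-receptor, by 0.60. Tdh, the threonine dehydrogenase on which mouse ES cells rely, was at 87.3 ± 2.63 CPM against 267 ± 25.5 (SD, n = 3), 3.06-fold lower in a stretch of chromosome 14 whose median was -0.883. Dppa2, Fbxo15 and Alpl, further ES cell markers, rose by 1.25, 0.73 and 0.43. Dppa4, Dppa5a and Fgf4 were kept at 0.12, -0.03 and -0.19. Among RNA regulators, L1td1 rose by 0.65, Lin28b fell by 0.82 and Lin28a was called higher and kept, at 0.36.

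Naive genes leaned upwards. Of 25 listed, 13 were higher, 7 lower and 6 kept, with a median of 0.44 (0.27 at a floor of 5 CPM, 0.95 without the shifted chromosomes). On the other chromosomes 9 of 15 were higher and 3 lower. Gbx2, a homeobox factor downstream of LIF, stood at 5.74, 5.15 and 5.17 CPM in J1 and 31.4, 30.3 and 30.5 in the EWS-OCT4 line, 5.73-fold higher. Klf5, a Krüppel-like factor, rose from 128, 200.1 and 172 CPM to 470.1, 534 and 527, although the stretch of chromosome 14 around it was at -0.731. Nr0b1 (Dax1), an orphan receptor of the network, rose from 26.7, 23.6 and 22.9 CPM to 80.6, 74.5 and 76.8. For none of these 3 genes did the groups overlap. In the OCT4 line they stood below J1 instead, at -0.30, -0.43 and -0.86, and EWS-OCT4 minus OCT4 was 2.82 (adjusted p = 1.75e-13), 2.04 (adjusted p = 2.35e-08) and 2.52 (adjusted p = 5.45e-14). Tfcp2l1, a naive factor under LIF control, rose 2.85-fold. Klf4 was kept at -0.20. Zfp42 (Rex1), the usual reporter of the naive state, went the other way, from 1307, 1434 and 1534 CPM to 736, 749.9 and 789. Klf2 also fell, by 0.69, and both genes lie on chromosome 8. Tex19.1, a germline and ES cell gene on chromosome 11, fell by 1.39.

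Formative and primed genes did not move as a block. Of 25 tested, 7 were higher, 9 lower and 9 kept. Otx2, a factor that opens the formative programme, fell from 80.7, 76.1 and 72.2 CPM to 8.94, 8.74 and 8.51, 8.75-fold, and EWS-OCT4 minus OCT4 was -1.80 (adjusted p = 3.82e-11). Dnmt3a and Dnmt3b, the de novo DNA methyltransferases that usually rise together on leaving the naive state, parted. Dnmt3a fell from 218, 230.4 and 236 CPM to 44.6, 46.9 and 46.5, and Dnmt3b rose from 92.7, 81.7 and 88.2 to 175, 175 and 175. Their groups did not overlap, and their fold changes were -2.31 and 1.00. Fgf15, a formative growth factor gene, fell by 2.10. Sall3 rose 25.6-fold, to 52.2 ± 1.16 CPM from 2.01 ± 0.571 (SD, n = 3), and Etv1, an ETS factor, rose 5.94-fold, while Sox11, Sox12 and Etv4 were kept at -0.03, -0.02 and 0.01.

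**Figure D3:**
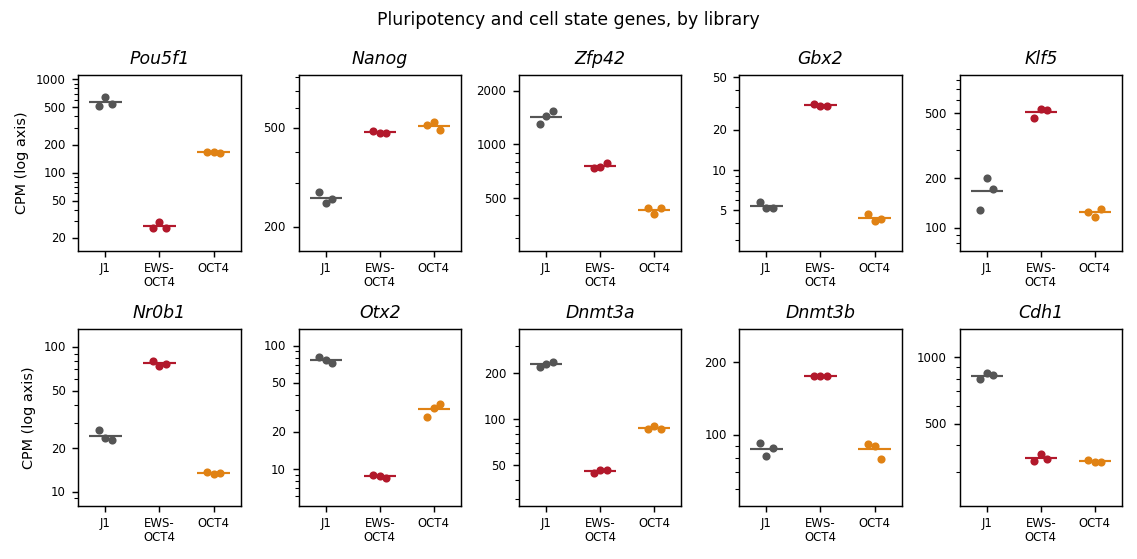
CPM on a log axis of 10 pluripotency and cell state genes, each point 1 library and each line a group mean, for J1, the EWS-OCT4 line and the OCT4 line (n = 3 each). Gbx2, Klf5, Nr0b1 and Dnmt3b are above J1 in the EWS-OCT4 line and not in the OCT4 line, while Pou5f1, Otx2 and Dnmt3a are lowest in the EWS-OCT4 line.

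The Nodal pathway, which uses SMAD2 and SMAD3 downstream of activin receptors, had members called in both directions. Of 28 genes tested, 12 were kept (42.9%, where all genes of 10 CPM or more had 54.7% to 68.2%), 10 higher and 6 lower. That is 57.1% called, below the 61.9% of all genes. Of its 10 receptors and mediators tested, 5 were higher, 3 lower and 5 kept. Nodal itself was kept at 0.05, Smad2 at 0.01 and Smad4 at -0.09. The TGF-beta family ligands Gdf3 and Inhbb rose, Gdf3 from 12.9, 12.9 and 10.7 CPM to 42.1, 39.2 and 38 and Inhbb by 1.63. The secreted Nodal inhibitors Lefty1 and Lefty2, both direct targets of the pathway, fell by 1.32 and 0.78, and Smad7, an intracellular inhibitor, rose by 1.16.

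In the BMP pathway, receptors and mediators held or fell (3 of 7 lower, 0 higher) while inhibitors and targets leaned upwards (7 of 12 higher, 3 lower, median 0.88, or 0.31 without the shifted chromosomes and 0.37 without a low-count filter). Id3, a target that blocks lineage factors, rose from 8.44, 7.42 and 7.52 CPM to 36.6, 40.6 and 40.7, with no overlap, and EWS-OCT4 minus OCT4 was 2.58 (adjusted p = 4e-13). Id2 and Id4 rose by 0.86 and 0.91, but Id1 fell by 0.32. Smad6, the inhibitory SMAD of the pathway, rose 3.92-fold. Among ligands Bmp4 rose by 0.78 and Bmp7 fell by 2.22, and Bmpr1a and Smad5 were kept at 0.27 and -0.02.

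FGF and ERK signalling, which pushes ES cells out of the naive state, was split. Of 46 genes, 18 were higher, 20 lower and 15 kept. In the cascade between receptor and ERK, 10 of 15 were kept, among them Nras at 0.25. Of the feedback and early response genes, 8 of 20 were higher and 10 lower. Dusp6, an ERK phosphatase, rose by 1.16, whereas Egr1, an immediate early factor, fell by 0.86 and Spry4, a feedback inhibitor, by 0.78. Etv5, an ERK-dependent factor, had 282, 284 and 283 CPM in J1 and 281, 300.0 and 287 in the EWS-OCT4 line and was kept at 0.03. Fgfr3 rose 4.18-fold from a low level and Fgfr4 fell by 0.91.

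LIF signals through LIFR, gp130 and STAT3. Lifr, Il6st and Stat3 were kept at 0.04, 0.24 and -0.13. Of the 10 targets and inhibitors tested, 6 were higher and 3 lower. Socs2 and Junb, an inhibitor and an early response factor, rose by 1.35 and 1.32, while Stat5b, on chromosome 11, fell by 1.24.

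Wnt signalling acts through beta-catenin and TCF/LEF factors. Ctnnb1, the beta-catenin gene, was kept at 0.18, and ligands and receptors leaned upwards, with 12 of 25 higher and 5 lower. Negative feedback genes and targets leaned downwards, with 8 of 14 lower, 5 higher and a median of -0.75 (-0.33 from the 6 libraries alone, -1.54 without the shifted chromosomes). Outside the shifted chromosomes 4 of 7 were lower and 3 higher. Lef1 dropped from 5.99, 6.54 and 5.69 CPM to 0.673, 0.476 and 0.716. Tcf7, the TCF1 gene, dropped from 140.2, 138 and 147 CPM to 36.4, 38.4 and 40.6. Both changes, -3.28 and -1.88, left no overlap between groups. Axin2, a common readout of the pathway, fell from 18.3 ± 1.19 CPM to 8.16 ± 0.0641 (SD, n = 3), with Tcf7 and Axin2 on chromosome 11 and Lef1 not on a shifted chromosome. Tcf7l1, the repressive family member of ES cells, rose by 0.74, and Tcf7l2 by 1.36. Dkk3 and Nkd2, secreted and cytoplasmic modulators, fell by 2.01 and 1.47, while Sfrp1, a secreted Wnt antagonist, rose by 0.91 and Fzd10, a receptor, by 1.64.

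Notch genes leaned downwards by small amounts. Of 20 tested, 10 were lower, 3 higher and 9 kept, and only 2 fell at least 2-fold. On the other chromosomes 8 of 11 were lower and 0 higher. Notch1 was kept at -0.02, Jag1, a ligand, fell by 0.50, and Rbpj, the DNA-binding effector, rose by 0.52. Of 12 Hedgehog genes, 5 were higher and 2 lower, with Gli2 and Ptch1, effector and receptor, up by 0.83 and 0.79.

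Hippo signalling holds back the coactivators YAP and TAZ, and its effectors and targets leaned upwards. Of 14 tested, 10 were higher and 3 lower, and their median was 1.03. Outside the shifted chromosomes 8 of 12 were higher. Ccn2, a matricellular gene driven by YAP and TEAD, stood at 6.35, 7.86 and 6.02 CPM in J1 and 60.9, 62.7 and 60.7 in the EWS-OCT4 line, 9.07-fold higher. Amotl2, an angiomotin that binds YAP, stood at 17.4, 16.8 and 16 CPM and 85.6, 92 and 90.1. Lats2, the kinase that restrains YAP, stood at 2.33, 1.56 and 1.79 CPM and 28.4, 27.7 and 29.2, a 15-fold rise in the stretch of chromosome 14 whose median was -0.883. No library of one group reached the other for these 3 genes. Ccn1 and Amotl1 rose by 1.91 and 1.85, Wwtr1, the TAZ gene, was kept at -0.08, and Amot fell by 1.14. The OCT4 line also stood above J1 for Ccn2, Amotl2 and Lats2, by 1.42, 3.04 and 3.02, and EWS-OCT4 minus OCT4 was 1.76, -0.62 and 0.88, all called.

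Enzymes and carriers of retinoic acid leaned downwards, with 6 of 11 lower and 1 higher. Crabp1, a cytoplasmic retinoic acid carrier, fell from 65.3, 75.2 and 65.9 CPM to 14.9, 14.3 and 16.2, while Meis2, a homeobox target, rose from 1.53, 1.28 and 0.752 CPM to 11.3, 14 and 12.8. Receptors parted, with Rarg kept at 0.23 and Rara, on chromosome 11, down by 1.10. In the insulin and PI3K axis, 13 of 36 were higher and 15 lower, and 6 and 9 of 19 on the other chromosomes. The kinase gene Akt1, in the raised end of chromosome 12, went from 10.8, 10.9 and 9.31 CPM to 33.5, 33.9 and 33.6. Pdgfa and Pdgfc, growth factor genes, rose by 2.50 and 2.52, Igfbp2 fell by 1.44, and Mtor and Tsc2 were kept at -0.20 and 0.05.

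**Figure D4:**
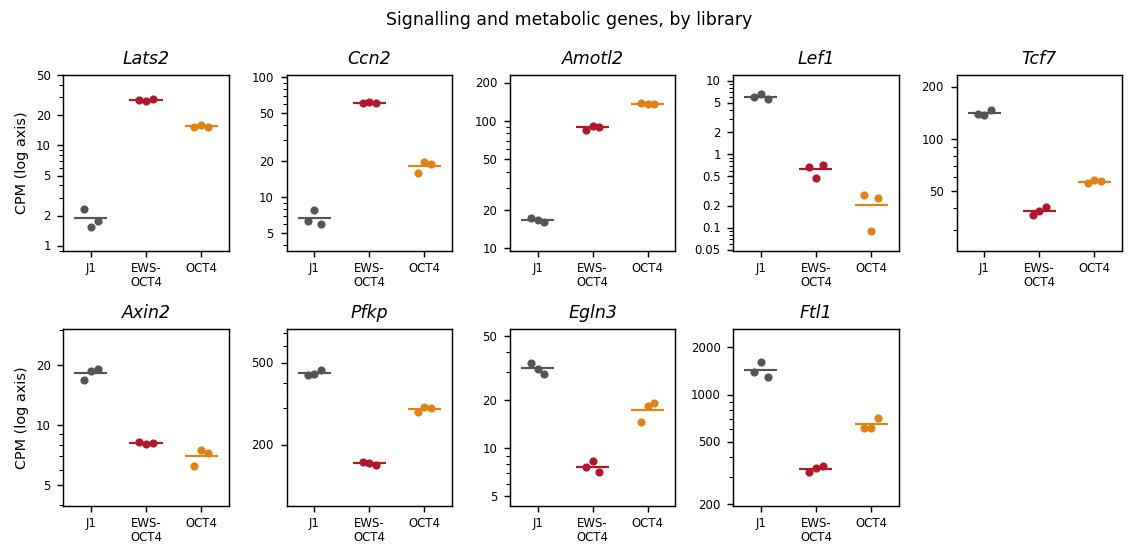
CPM on a log axis of 9 signalling and metabolic genes, each point 1 library and each line a group mean, for J1, the EWS-OCT4 line and the OCT4 line (n = 3 each). Lats2, Ccn2 and Amotl2 are above J1 and Lef1, Tcf7, Axin2, Pfkp, Egln3 and Ftl1 below it in both stable lines, with the lowest Pfkp, Egln3 and Ftl1 values in the EWS-OCT4 line.

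Lineage genes changed in both directions. Trophectoderm genes leaned upwards, with 13 of 27 higher and 7 lower. Krt8 and Krt18, the keratins of simple epithelia, rose by 1.75 and 1.05, and Tead4, a TEAD factor of the trophectoderm, by 1.69, whereas Esx1, a placental homeobox gene, fell by 2.34. Cdx2, the caudal factor of the trophectoderm, had 0.0803, 0 and 0.094 CPM in J1 and 1.63, 1.43 and 2.02 in the EWS-OCT4 line (adjusted p = 7.12e-08). The 5 trophectoderm markers of the short list summed to only 10.9 to 11.9 CPM, against 5.79 to 6.67 in J1 and 105 to 129 in the OCT4 line. Primitive endoderm genes leaned downwards, with 13 of 25 lower and 7 higher, and on the other chromosomes 7 of 14 lower and 4 higher. Cubn and Lrp2 encode the endocytic receptors cubilin and megalin. Cubn fell from 16.7, 13 and 15.3 CPM to 0.577, 0.346 and 0.337 and Lrp2 from 78.7, 65.4 and 73.6 CPM to 17, 19.5 and 17.8, with no overlap. For Lrp2 the OCT4 line stood at 0.39 against J1, and EWS-OCT4 minus OCT4 was -2.39 (adjusted p = 1.89e-13). Gata6, which specifies the lineage, fell from 2.45, 0.958 and 1.88 CPM to 0.673, 0.346 and 0.126 (adjusted p = 0.000289), and the 5 markers of the short list summed to 4.32 to 5.69 CPM against 9.31 to 11.9. Rhox5 and Lama1, listed with the same lineage, rose by 4.33 and 1.19.

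Several neural genes rose. Of 12 neuroectoderm genes tested, 7 were higher and 3 lower, and 3 of 6 were higher outside the shifted chromosomes. Sox21, a SOXB2 factor, rose 31.2-fold to 76.5 ± 3.06 CPM (SD, n = 3), En2, a midbrain homeobox gene, 8.98-fold and Ncam1, a neural adhesion gene, 4.97-fold, while Map2 and Tubb3 fell by 0.66 and 0.44. Sox21 was at 21.8, 25.3 and 21.1 CPM in the OCT4 line. The 4 neuroectoderm markers of the short list, most of their sum from Tubb3, summed to 55.3 to 57.2 CPM against 59.2 to 80.2 in J1. Of the 3 tested, 2 were higher and 1 lower. Of 14 mesendoderm genes tested, 4 were higher and 2 lower. Their short marker list summed to 5.81 to 7.83 CPM in the EWS-OCT4 line and 5.91 to 6.34 in J1, ranges that overlapped. Of 9 fibroblast and feeder genes tested, 3 were higher and 5 lower, among them Col1a1, which fell by 3.47, and Tagln, a smooth muscle and TGF-beta response gene, which rose by 4.05. The 3 tested markers of feeder cells on the short list, Col1a1, Col1a2 and Thy1, were all lower. Of the others, Dcn, Lum and Twist2 were at 0 in every J1 library, Col3a1 was at 0.142 to 0.206 CPM there and Postn at no more than 0.0473.

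Genes of the two-cell-like state rose together. Of 16 tested, 15 were higher and 0 lower, with a median of 2.57, and the levels of Zscan4c, Zscan4d and Zscan4a, telomere-linked genes of that state, rose by 2.27, 3.01 and 2.77. The rise was shared by the OCT4 line, whose median against J1 was 2.42 for the same list. Zscan4 copies are nearly identical, so the split of counts between them is uncertain. Repeated families of the early embryo and germ line had high counts too, with 11 of 13 PRAME-like genes and 8 of 11 Rhox homeobox genes higher, under the same limit. Medians of these 2 families in the OCT4 line against J1 were 1.93 and 5.07. Meiosis genes leaned the other way, with 13 of 20 lower and 6 higher, and 6 lower and 5 higher of 12 on the other chromosomes. Meioc, which holds germ cells in meiotic prophase, fell from 150.0, 108 and 131 CPM to 9.62, 9.96 and 11.2 on chromosome 11, where the surrounding median was -0.469. Rec8, a meiotic cohesin, fell by 1.69, and Smc1b and Stag3, cohesins too, rose by 0.98 and 0.87. In the piRNA group Fkbp6 rose 33.1-fold, Tdrd5, Piwil1 and Mael fell by 1.92, 1.71 and 1.33, and Ddx4, the vasa gene, rose by 0.52. For Fkbp6, EWS-OCT4 minus OCT4 was 0.0016. Of 8 tudor domain genes, 5 were lower and 1 higher.

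Imprinted genes, read from one parental copy, divided into 14 higher, 10 lower and 14 kept of 37 tested. Igf2, the fetal growth factor, went from 1.29, 0.559 and 0.799 CPM in J1 to 85.5, 96.3 and 100, 106-fold higher, while its reciprocally imprinted neighbour H19 fell from 25.9, 51.3 and 42.4 CPM to 20.9, 19.8 and 20.8. In the OCT4 line Igf2 was at 500.4, 508 and 589 CPM and H19 at 525, 614 and 660.5, so both stood far above J1 there, and EWS-OCT4 minus OCT4 was -2.50 and -4.87. Cdkn1c, a growth inhibitor, and Grb10, a signalling adaptor, rose 8-fold and 4.89-fold. Meg3, Rian and Mirg, noncoding RNAs of one imprinted domain, rose by 1.71, 1.69 and 3.00, in the end of chromosome 12 whose median was 1.05. Plagl1, a zinc finger gene, fell 11.7-fold, and Igf2r, Impact and Mest were kept at -0.02, -0.01 and 0.24.

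Chromatin regulators were kept to unequal extents, 34.6% of the BAF list, 57.1% of Polycomb, 57.9% of NuRD and deacetylases and 89.5% of H3K9 silencing, where all genes of 10 CPM or more had 54.7% to 68.2%. Of 19 genes for H3K9 silencing, 17 were kept, among them Trim28, the co-repressor of zinc finger proteins, at 0.27. Of 35 Polycomb genes 20 were kept, 12 higher and 8 lower. Ezh2, Jarid2 and Rnf2 were kept at 0.23, 0.18 and 0.16, Eed rose by 0.90, and Suz12 and Ezh1, both on chromosome 11, fell by 0.92 and 1.46. Bmi1, a PRC1 subunit of adult stem cells, rose from 2.09, 1.24 and 1.32 CPM to 11.7, 10.3 and 11.5. Setd1b, an H3K4 methyltransferase, rose from 25.9, 35.7 and 34.7 CPM to 128, 141 and 130.5 and EWS-OCT4 minus OCT4 was 1.96 (adjusted p = 4.22e-11). Arid1b, a BAF subunit, rose from 7.95, 9.14 and 10.8 CPM to 43.8, 48.7 and 44.6, and Dpy30, a core subunit of H3K4 methyltransferases, fell from 150.0, 147 and 149.6 CPM to 61.4, 67.7 and 68.4. Of 26 BAF genes 9 were kept, with Smarca4 (BRG1), its ATPase in ES cells, at 0.18, and of 19 NuRD and deacetylase genes 11, with Chd4 and Hdac1 at 0.18 and 0.35. In the DNA methylation group, 12 of 19 were higher and 3 lower. Dnmt1, the maintenance enzyme, rose by 0.54, its partner Uhrf1 by 0.47, and the demethylating dioxygenases Tet1 and Tet2 by 0.55 and 0.82, while 1 of the group, Dnmt3a, fell at least 2-fold.

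Of 68 cell cycle genes 42 were kept (61.8%, within the range of all genes of 10 CPM or more), and of the 25 replication genes 21, with Mcm3, Mcm5 and Mcm6, subunits of the replicative helicase, at 0.19, -0.12 and -0.08. Ccnd3, cyclin D3, rose from 69.7, 78.5 and 66.8 CPM to 224, 233 and 229. Top2a, topoisomerase II alpha, fell from 1179, 1249 and 1271 CPM to 609.8, 590.3 and 591, 2.07-fold and on chromosome 11, while Bub1b, Ccnb1 and Ccna2, other genes of mitosis, were kept at -0.21, -0.13 and -0.10. The inhibitors Cdkn1b and Cdkn1c rose by 1.57 and 3.00 and Cdkn1a, the p21 gene, fell by 0.69. Of 32 p53 targets 14 were higher, 10 lower and 13 kept, with Trp53 and Mdm2 kept at -0.19 and 0.26. Myc rose from 18.1 ± 1.11 CPM to 45.1 ± 0.178 (SD, n = 3), Mycn fell by 0.48, and the OCT4 line stood at -1.47 against J1 for Myc (EWS-OCT4 minus OCT4 2.78, adjusted p = 2.71e-13). Among BCL2 family genes Bmf, Bnip3 and Bnip3l, which promote death or mitophagy, fell by 2.13, 1.33 and 1.39, and Bcl2l1, the BCL-XL gene, rose by 0.90. Bnip3l lies in a stretch of chromosome 14 whose median was -0.905. In DNA repair and telomere upkeep 35 of 47 were kept. Brca2 rose by 0.96 and Blm fell by 0.81, with Msh6, Parp1 and Brca1 kept at 0.12, -0.23 and -0.04.

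Metabolic genes leaned downwards. Of 23 glycolytic genes 16 were lower, 2 higher and 7 kept (median -0.50), and of 21 hypoxia response genes 16 were lower and 2 higher (median -0.81). On the other chromosomes the counts were 14 of 21 and 9 of 13 lower, so the same lean was present there. Pfkp, a phosphofructokinase, had 436, 441 and 459.8 CPM in J1 and 165, 162 and 159.9 in the EWS-OCT4 line, 2.74-fold lower. Egln3, whose promoter is printed above, had 34.1, 31.4 and 29.2 CPM and 7.64, 8.31 and 7.12, 4.11-fold lower. Neither pair of groups overlapped. Pdk1, which holds pyruvate back from mitochondria, fell by 1.43. Slc16a3, a lactate exporter, and Aldoc, both on chromosome 11, fell by 1.28 and 1.92. Against that, Hk2, a hexokinase, rose by 0.70, and Gapdh and the glucose transporter genes Slc2a1 and Slc2a3 were kept at 0.09, 0.04 and 0.25.

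Sterol and fatty acid synthesis leaned the same way, with 18 of 24 cholesterol genes lower and 2 higher, and 11 of 15 fatty acid genes lower and 1 higher. On the other chromosomes 13 of 18 and 6 of 10 were lower. Most of these changes were small, and 11 of the cholesterol genes were kept. Fdft1, squalene synthase, fell by 1.39, in the stretch of chromosome 14 at -0.883, Dhcr7 by 1.17 and Fasn, fatty acid synthase, by 0.89. Ebp and Pmvk, of the same pathway, rose by 1.54 and 1.21. In the tricarboxylic acid cycle and pyruvate entry, 19 of 31 were lower and 16 kept, and Pcx, pyruvate carboxylase, rose by 1.42. Of 21 amino acid synthesis genes 12 were lower, and 7 of 14 on the other chromosomes. Phgdh, of serine synthesis, fell by 1.07 and Gldc, the glycine decarboxylase, by 1.33, while Shmt2, of the same pathway, was kept at -0.36. Bcat1, a branched-chain aminotransferase, rose by 1.37. Some iron and metal storage genes were lower. Ftl1, ferritin light chain, fell from 1388, 1600 and 1292 CPM to 319.7, 341 and 352, 4.23-fold, while Fth1, the heavy chain, had 475, 572 and 479 and 518, 578 and 559 and was kept at 0.12. The metallothionein gene Mt1 fell from 358, 464 and 369 CPM to 95.1, 100.3 and 103 and Mt2 by 1.38, both on chromosome 8. Ftl1 has near-identical copies in the genome, so its count is uncertain.

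Housekeeping complexes were mostly kept. Kept genes numbered 33 of 41 for nuclear complex I, where the background over all genes was 36.2%. They numbered 60 of 78 for the mitochondrial ribosome, 69 of 87 for cytoplasmic ribosomal proteins and 69 of 97 for splicing. Members of these lists are abundant, and all genes of 10 CPM or more had kept shares of 54.7% to 68.2%. The share of counts under ribosomal protein genes was 5.66 ± 0.273% in J1 against 4.82 ± 0.116% with the fusion (SD, n = 3; two-sided exact permutation p = 0.1, the smallest that 3 against 3 allow). Of them, 27 were lower and 10 higher, and 9 and 7 of 59 on the other chromosomes. Rpl4 and Rpl3 were kept at -0.10 and -0.15, and Rpl27 and Rpl26, on chromosome 11, fell by 0.80 and 0.77. Ncl, nucleolin, was kept at 0.03, while Npm1, nucleophosmin, fell by 0.56 on chromosome 11. Proteasome subunits were 17 lower, 6 higher and 22 kept of 38, with Psmb3, Psmb6 and Psmd11 on chromosome 11 at -1.06, -0.92 and -0.83. Elsewhere 5 of 19 were lower. Within splicing, Srsf1 and Srsf3, SR proteins, were kept at 0.08 and 0.18, Hnrnpf and Hnrnpr rose by 0.61 and 0.66, and Taf15, a relative of EWS, was kept at 0.02. Esrp1, an epithelial splicing regulator, fell by 0.95.

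Genes of mitochondrial DNA did not move together. Of the 13 protein-coding ones, 7 were higher and 2 lower. CYTB, of complex III, went from 12379, 10781 and 12938 CPM to 27085, 27102 and 28772, and COX1, of complex IV, from 41973, 32957 and 38381 CPM to 22512, 22190 and 24252. Neither pair of groups overlapped, and the changes of 1.20 and -0.72 were opposite, for RNAs read from the same strand. Together these genes took 16.7 ± 0.41% of all counts against 14.3 ± 1.61% in J1 (SD, n = 3; exact permutation p = 0.1). The difference of 2.39 percentage points was 1.5 without the second J1 library. Among chaperones, 8 of 14 cytosolic members were higher and 2 lower, and 4 of 7 higher outside the shifted chromosomes. Of 18 members of the endoplasmic reticulum, 6 were higher, 3 lower and 12 kept, where 30.3% of all genes were higher. Hsp90aa1, the inducible HSP90, rose from 2230, 2431 and 2507 CPM to 7369, 7304 and 7372, in the raised end of chromosome 12, and Hspb1 and Hsph1, on chromosome 5, by 1.23 and 1.21. Hsp90ab1 and Hspa8, the constitutive forms, were kept at -0.23 and -0.12.

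Interferon-induced and antigen presentation effectors leaned downwards, with 13 of 21 lower and 3 higher, but only 7 of them lie outside the shifted chromosomes, 5 of these lower. Nlrc5, the transactivator of class I genes, fell from 6.35, 5.43 and 5.74 CPM to 0.673, 1.17 and 0.758, and H2-K1, a class I gene, by 1.54. Ifitm1 fell by 1.16 and Ifitm3 was kept at 0.28. Among the sensors and signal carriers 6 of 14 were kept.

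Stress and turnover genes were divided. In the ATF4 programme, the response to amino acid shortage, 6 of 20 were higher and 4 lower. Over all genes 30.3% were higher and 31.6% lower, so neither share of this list was above the background. Atf4 itself was kept at -0.03, Atf5 rose by 0.75 and the cationic amino acid transporter gene Slc7a3 by 1.11. Ddit4, an mTOR inhibitor, fell by 1.06. Of 30 lysosome and autophagy genes 14 were lower and 8 higher, and on the other chromosomes 3 of 15 were lower and 5 higher. Sqstm1, an autophagy receptor on chromosome 11, fell by 1.01, and Tfeb and Tfe3, which drive lysosomal genes, rose by 1.52 and 1.03. Lamp1 and Ctsl, lysosomal membrane and protease genes, were kept at 0.30 and 0.04. In nucleotide synthesis 11 of 18 were kept and 10 lower, with Paics and Gart, purine enzymes, at 0.10 and -0.25 and Prps2 down by 1.07.

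**Figure D5:**
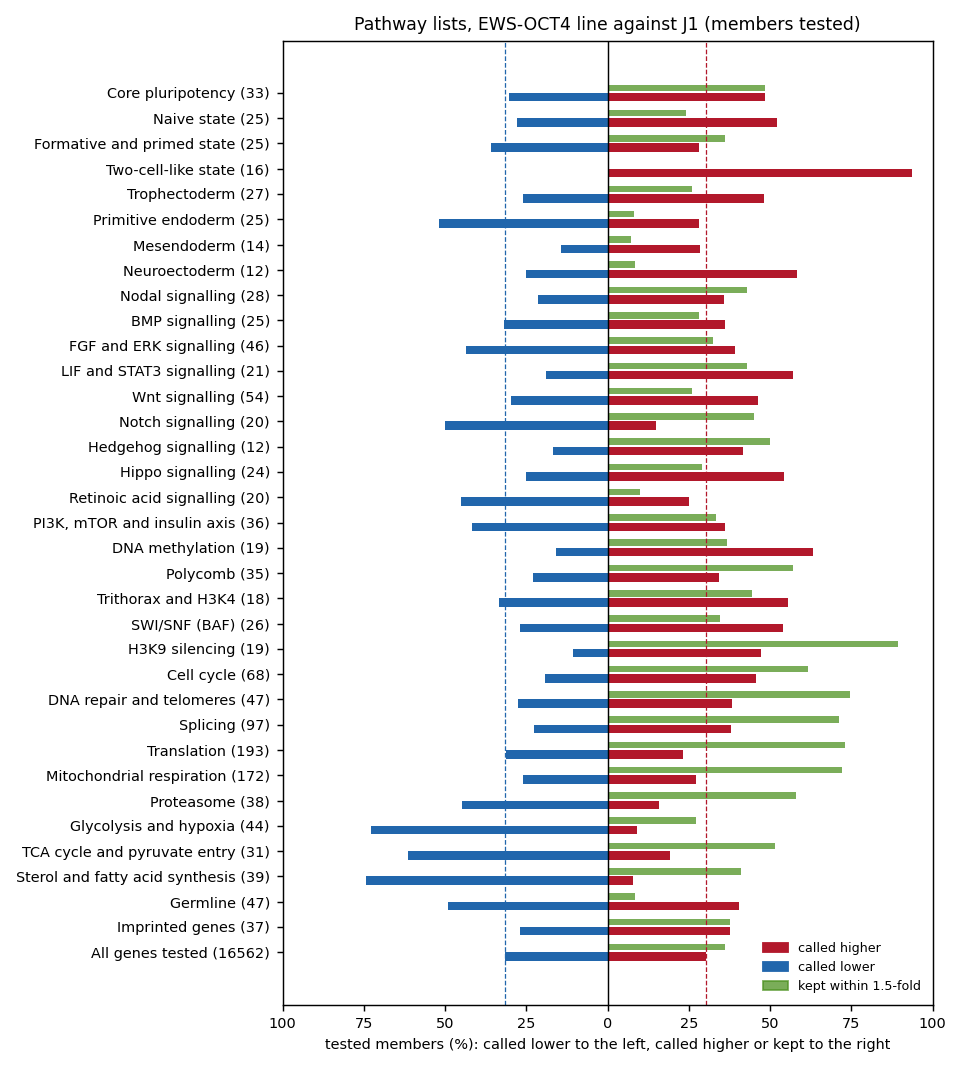
For each pathway list, the share of tested members (%) called lower (bars to the left) and called higher or kept within 1.5-fold (bars to the right) in the EWS-OCT4 line against J1, with the number tested in brackets. Dashed lines mark the shares over all 16562 genes, 31.6% lower and 30.3% higher; metabolic lists extend far left, the two-cell-like list far right, and splicing, translation and mitochondrial lists have long kept bars.

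Several gene families leaned one way. Numbered zinc finger genes, many of them KRAB repressors of transposons, leaned upwards, with 183 of 362 higher, 57 lower and 137 kept (median 0.29). On the other chromosomes 142 of 251 were higher. Their changes were mostly small, 32 being at least 2-fold higher. Zfp386 and Zfp28 rose by 1.91 and 1.49, and Zfp869 fell by 2.31.

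Matrix genes leaned downwards. Of 34 collagens 20 were lower and 3 higher, and 17 of 28 on the other chromosomes. Col4a1 and Col4a2, the basement membrane collagens, fell 2.83-fold and 2.73-fold on chromosome 8, while they stood above J1 in the OCT4 line, at 313 and 138 CPM on average against 25.6 and 13. Col18a1 rose by 0.49. Laminins exchanged members, with Lamb1 down by 1.09 and Lama1 and Lamc1 up by 1.19 and 0.56, so that the 3 chains of laminin 111 did not move alike. Integrins Itgb1 and Itga6, the main laminin receptor of ES cells, were kept at -0.04 and -0.04.

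Among cell contacts, the connexin genes Gjb5 and Gja1 (connexin 43) rose by 2.23 and 1.90, while Gjc1 was kept at -0.32. Protocadherins were 12 higher and 4 lower of 25, though clustered copies share exons and their counts are uncertain. Classical cadherins were 6 lower and 2 higher of 13. Ephrins and Eph receptors, which guide cell sorting, were 8 higher and 6 lower of 18, with Epha7 and Epha4 up by 2.18 and 0.74 and Epha1 down by 0.80. Semaphorins and plexins were 15 lower and 9 higher of 28, with Sema6a and Nrp2 down by 2.22 and 0.94. Tubulins changed in their minor forms, Tuba3a and Tubb2b rising by 1.51 and 0.61 and Tubb4a and Tuba4a falling by 1.91 and 1.41, while the abundant Tubb5 and Tuba1b were kept at -0.06 and 0.15. Among claudins Cldn6 and Cldn7 fell by 0.98 and 1.03.

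Channel genes of excitable cells leaned downwards. All genes at 1 to 10 CPM leaned that way too, with 1850 of 5024 lower and 1277 higher. Of 54 potassium channel genes 33 were lower and 5 higher (median -0.90), and 22 of 37 were lower on the other chromosomes. Kcnk1 and Kcnj3 fell by 1.45 and 1.48. Of 30 sodium and calcium channel genes 17 were lower and 6 higher, and 9 of 21 were lower and 5 higher on the other chromosomes. Cacna1g and Cacna1h, T-type channels, fell by 2.79 and 1.91. Kif1a, a kinesin that carries synaptic vesicle precursors, fell from 110.0, 115 and 115 CPM to 9.62, 9 and 11.1, whereas the mitotic kinesins Kif11 and Kif20a were kept at 0.37 and 0.11. Abcc8, a subunit of ATP-sensitive potassium channels, fell from 12.5, 12.7 and 13.3 CPM to 0.337, 0.216 and 0.126.

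Enzyme families of detoxification also leaned downwards, cytochrome P450 genes with 16 of 26 lower and glutathione transferases with 11 of 20. Cyp2s1 and Gstm5 fell by 1.57 and 1.74, and Gsta4 rose by 0.82. Solute carriers, the largest transporter family, were spread, with 74 higher, 92 lower and 73 kept of 252. Slc5a1, a sodium and glucose cotransporter, rose 10.4-fold and Slc7a2, an arginine transporter, fell by 1.66. RAB small GTPases were 26 kept, 12 higher and 18 lower of 57. HOX genes were mostly too low to test, with 13 of 39 tested, 2 higher and 2 lower.

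The largest changes with at least 10 CPM in the higher group did not fall in one pathway. Mid1, which spans the edge of the pseudoautosomal region of the mouse X, had 2.57, 4.39 and 2.82 CPM in J1 and 2075, 2226 and 2203 in the EWS-OCT4 line, 660.3-fold higher, and the OCT4 line stood close to it, at 0.56 for EWS-OCT4 minus OCT4 (adjusted p = 7.25e-05). Creb5, a CREB family factor, had 1.69, 1.68 and 1.6 CPM and 69.9, 67.5 and 67.3, and the OCT4 line 0.739, 0.497 and 0.798, and its level was high in the EWS-OCT4 line and low in both others (EWS-OCT4 minus OCT4 6.64, adjusted p = 2.26e-16). Fgfbp1, an FGF-binding protein gene, showed the same order, with 1.08, 1.04 and 1.46 CPM in J1, 19.7, 18.4 and 20.9 in the EWS-OCT4 line and 2.22, 2.12 and 2.1 in the OCT4 line (EWS-OCT4 minus OCT4 3.19, adjusted p = 1.52e-12). Sfmbt2, a Polycomb-related gene, had 7.23, 5.9 and 6.72 CPM and 153, 151 and 145. Downwards, Acan, which encodes the cartilage proteoglycan aggrecan, had 42.9, 40.2 and 43.3 CPM and 2.5, 2.34 and 1.77. Plac8 had 28.8, 22.5 and 22.7 CPM and 2.79, 2.47 and 1.77. Aurkc, a meiotic Aurora kinase, had 11.9, 13.4 and 9.97 CPM and 1.06, 1.34 and 1.39, with 17.5, 18.7 and 22.8 in the OCT4 line (EWS-OCT4 minus OCT4 -3.95, adjusted p = 1.83e-12). No library of the EWS-OCT4 line overlapped J1 for any gene of this paragraph.

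Few genes were present in one group and missing from the other. At most 3 counts over 3 libraries in one group and at least 30 in the other were met by 64 genes of the EWS-OCT4 line, 36 of them with a name that is not a predicted-gene or clone name, and by 69 genes of J1, 53 of them so named. Acsm4, an acyl-CoA synthetase gene, had 115, 157 and 152 counts in the EWS-OCT4 line and 1, 1 and 0 in J1. Magea4, a cancer-testis gene on the X, had 87, 111 and 106 counts against 2, 1 and 0. Dnajc5g had 40, 39 and 50 counts against 0 in every J1 library, at least 42.8-fold higher against a floor of 3 counts over the group. In the other direction, Klk1b22, a kallikrein, had 72, 59 and 57 counts in J1 and 0, 0 and 1 in the EWS-OCT4 line. H2-Q7, a class I gene with close relatives, had 56, 44 and 33 counts against 0 in every library, at least 44.5-fold lower. Mylk2 had 35, 42 and 40 counts against 1 in each. Some of these genes were uneven within a group, such as Smim39, with 150, 0 and 0 counts in J1, and Mir692-3, with 0, 318 and 271 in the EWS-OCT4 line, so that membership can rest on 1 or 2 libraries.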

How the data were processed

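Total RNA of 9 libraries was extracted with RNAiso Plus and made into CORALL RNA-seq V2 libraries, per the labels' protocols. The authors deposited counts per gene symbol and library, whole numbers with no scaling. GRCm39, GATK, Salmon, STAR and fastp are named, without roles, per the submitters' processing notes. Versions, annotation, strand setting and any use of molecular identifiers are not stated in the labels or headers. Without a strand setting, overlapping and antisense genes cannot be separated, and copies of repeated families may share or lose reads.

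From these counts, edgeR 4.0.16 in R 4.3.3 (filterByExpr, TMM scaling, robust quasi-likelihood fit over all 9 libraries in 3 groups, Benjamini-Hochberg adjustment over 16562 genes) gave the fold changes, standard errors and adjusted p-values. CPM used TMM-scaled library sizes, except in the short marker list. Its sums, single feeder gene levels and Nanog levels of the OCT4 line used total counts without that scaling. Share differences used two-sided exact permutation tests. On simulated counts of 16143 genes for this comparison, the fit called 36, 76, 100 and 100% of 50 genes each changed 1.25, 1.5, 2 and 4-fold and placed 72.9% of the 15943 unchanged genes inside the 1.5-fold band. The changed genes were drawn only from those averaging at least 50 counts per library, so calling of changes at lower levels was not simulated. Chromosomes came from the RefSeq table (GRCm38.p6), matched by symbol or synonym for 16102 of 16562 genes, and only gene order was used.

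Gene lists and families (96) and the members described were chosen with earlier results of these data known, and symbols in them were corrected to those of the files. Named genes are a set of anchors, the 12 largest changes in each direction (no overlap, at least 10 CPM in the higher group), up to 4 higher, lower and kept members of each list role, the 10 most abundant symbols and up to 10 genes detected in one group only. Genes named for a stretch's end, a promoter match or the short marker list fall outside that rule and were chosen after their values were seen. Library numbers did not pair the samples. Alternatives used RLE and upper-quartile scaling, other filters, DESeq2 1.42.0, limma-voom (limma 3.58.1), a replicate block, a 1.5-fold threshold and leaving out each library. Some members of the lists are counted but not reported by name here.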

Additional observations from a re-analysis of the deposited data

How the results depend on the processing

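The count of 10249 genes called (5016 higher, 5233 lower) was 10240 with RLE scaling, 10156 (4561 higher, 5595 lower) with upper-quartile scaling, 10867 without a low-count filter, 7499 at a floor of 5 CPM, 9892 with DESeq2, 10239 with limma-voom and 9809 from the 6 libraries alone. Testing against a 1.5-fold change left 3849 (1617 higher, 2232 lower). Without the genes of chromosomes 5, 8, 11, 12, 14 and 17, a setting chosen after seeing the data that fits fewer genes, it was 6296 of 11010. Leaving out 1 library in turn gave 9310 to 10273 called and 5425 to 5969 kept. No gene called both as reported and under one of these settings changed direction. Of 305 named genes, 274 kept their direction and side of the threshold in every setting other than the 1.5-fold test and the block. Of 171 medians over lists and their roles for EWS-OCT4 against J1, 60 took another sign in at least 1 setting. The 10 printed for that comparison did not, and the 3 of them that moved by over 1.5 times have those values beside them. With the replicate number as a block 10534 were called and 6167 kept. Same-numbered libraries correlated at 0.185, 0.025 and -0.036, so the numbers were not taken as pairs. The log2 fold change of Ewsr1 was -0.18 (adjusted p = 0.0407, edgeR) without J1 library 1 and ranged from -0.18 to 0.0034 over libraries left out. Depth limits the low range, where no gene under 1 CPM could be called kept.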
